A study of Mus musculus with 4 samples.

Results

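The genes described here are 43 nucleic acid sensors, interferon receptors with their kinases, and interferon-stimulated effectors, chosen by name from the 52636 gene lines of a count table. All 43 names were found in it: 11 genes of nucleic acid sensing and removal, 7 receptors and signalling proteins, and 25 effectors. The 11 are counted as sensors below, though they include the adaptors Mavs and Tmem173 and the enzymes Adar, Trex1 and Samhd1. The table holds 4 RNA libraries of mouse Hoxb8 cells, a myeloid progenitor line held in an immature state by the homeobox factor Hoxb8. Of these, 2 come from cells expressing DNMT3A R882H (R882H), a DNA methyltransferase with the substitution most often found in acute myeloid leukaemia, and 2 from cells with an empty vector (EV). Neither group is labelled with a treatment or an interferon, and the culture medium and its cytokines are not given in the labels used here. The labels name 1 cell line and do not give the vector, its promoter, the age or sex of the donor animal, or whether the libraries of a group came from separate cultures. The p-values therefore measure the spread between these libraries, which may be technical.

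Cells recognise viral and misplaced cellular nucleic acid with dedicated proteins. The helicases encoded by Ifih1 (MDA5) and Ddx58 (RIG-I) bind double-stranded RNA and signal through Mavs on mitochondria, while the enzyme encoded by Mb21d1 (cGAS) binds cytosolic DNA and signals through Tmem173 (STING). Both routes lead to type I interferon, which binds the receptor made of Ifnar1 and Ifnar2 and, through Jak1, Tyk2, Stat2 and Irf9, switches on genes that carry an interferon-stimulated response element (ISRE). Interferon gamma uses Ifngr1 and Ifngr2 and acts through the GAS element. Many of the sensors are themselves interferon-stimulated genes.

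The ISRE is shown first, and its core was found in some members of each of the 3 roles. The core searched was GAAA, then NN, then GAAA, on either strand, so that TTTC, then NN, then TTTC is the same core read from the other strand. RefSeq promoter windows on GRCm38.p6, from 250 bases before to 50 after the start, were found for 35 of the 43 members. The core occurred in 12 of these 35 (34.3%), against 3.99% of the 27025 genes with a window. By role it was found in 3 of 8 sensors, 1 of 7 receptor and signalling genes and 8 of 20 effectors. A match describes letters in the window and does not show binding. The stretches below hold the core in 4 members that fell in R882H cells (Ifih1, Ddx58, Bst2, Ifitm3), in 3 that did not pass the test (Ifitm2, Isg15, Eif2ak2) and in 1 with too few counts to test (Ifit1). Each is written 5′ to 3′ along its gene's strand, with the cores in capitals.
Ifih1, chr2:62646206-62646233, minus strand: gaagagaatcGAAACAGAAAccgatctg
Ddx58, chr4:40239804-40239833, minus strand: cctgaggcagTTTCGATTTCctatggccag
Bst2, chr8:71537577-71537612, minus strand: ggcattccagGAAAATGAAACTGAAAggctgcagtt
Ifitm3, chr7:141010715-141010743, minus strand: gGAAAAGGAAActtctgaGAAACCGAAAc
Ifitm2, chr7:140955988-140956017, minus strand: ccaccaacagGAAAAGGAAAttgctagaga
Isg15, chr4:156200865-156200906, minus strand: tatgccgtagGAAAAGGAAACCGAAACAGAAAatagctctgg
Eif2ak2, chr17:78882535-78882564, minus strand: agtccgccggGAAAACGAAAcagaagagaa
Ifit1, chr19:34640775-34640823, plus strand: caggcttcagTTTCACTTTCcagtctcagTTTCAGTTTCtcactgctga

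In Bst2 2 cores overlap and in Isg15 3 do, while the 2 cores of Ifitm3 and the 2 of Ifit1 are separate. The stretches of Ifih1, Ddx58, Ifitm3 and Eif2ak2 overlap the first exon of their gene in GENCODE M21, and those of Bst2, Ifitm2, Isg15 and Ifit1 lie outside annotated exons. Eif2ak2's stretch also lies in an exon of Gm26637 on the opposite strand. The other members with a core were Stat2, which did not pass the test, and Ifit3, Oas1a and Rsad2, which had too few counts for it. Of the 12 members with a core, 4 fell, 0 rose, 4 did not pass and 4 were not tested. Of the 23 members with a window and no core, 6 fell, 3 rose, 12 did not pass and 2 were not tested. Over all 11444 genes tested, 38.8% were called (an adjusted p under 0.05 in edgeR), 19.3% higher and 19.4% lower in R882H; the counts by core are small and no test set them against each other. No window was at hand for Dhx58, Zbp1, Tmem173, Usp18, Mx1, Rtp4, Parp9 and Parp14. The GAS core TTCNNNGAA, which reads the same on both strands, was in the windows of 11 members (31.4%), against 9.55% of all genes. These were 3 sensors, 2 receptor and signalling genes and 6 effectors. The GAS core overlapped an ISRE core in Bst2 and in Ifitm3.

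**Figure D1:**
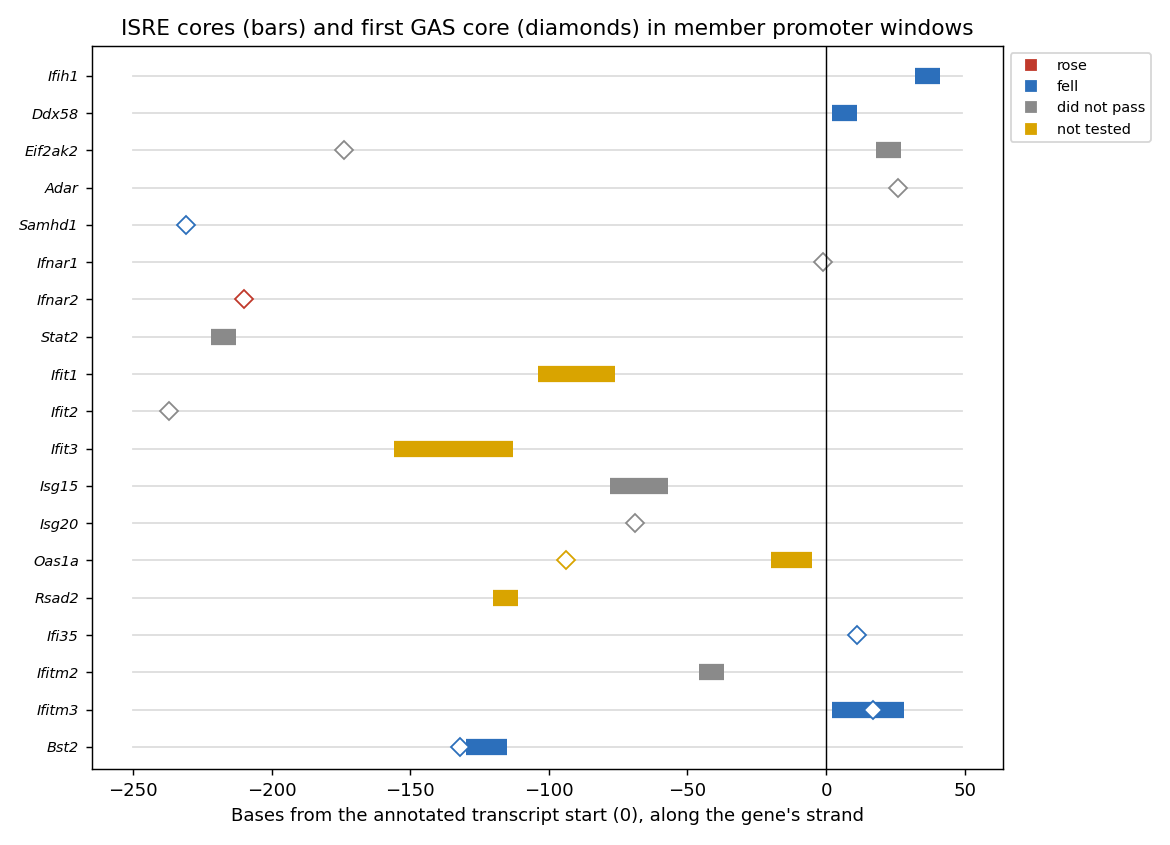
Positions of the ISRE cores (bars, from the first core of a window to the end of the last) and of the first GAS core (diamonds) in member promoter windows, by bases from the RefSeq start, coloured by the outcome of the test of R882H against EV. ISRE cores lie on both sides of the start: those of Ifih1, Ddx58, Eif2ak2 and Ifitm3 come after it, and those of Bst2, Isg15 and Ifit1 before it.

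Total counts were 5921985 and 5847609 in the R882H libraries and 5470330 and 5605092 in the EV libraries. Log2 CPM, the count scaled to the library's size, correlated across genes with Pearson r of 0.988 within R882H and 0.986 within EV, and 0.900 to 0.908 between the groups. Dnmt3a had 254 and 239 counts in R882H, against 264 and 270 in EV (log2 fold change -0.19 ± 0.15 SE, adjusted p = 0.334), and a 3′ tag need not read a transgene, so the genotype labels were not checked by it. The groups stood apart in Y-linked transcripts, with 65 and 41 counts of Ddx3y in R882H against 0 and 2 in EV, while Xist had 1880 and 1509 counts in R882H against 1463 and 1438 in EV. A difference in the origin of the cells and the genotype cannot be told apart in this design. Hoxb8 counts were low, and whether they come from the Hoxb8 that holds these cells immature was not tested. The gene had 15 and 4 counts in R882H against 25 and 44 in EV. It passed the test (adjusted p = 8.24e-04), but without EV replicate 2 it did not (adjusted p = 0.0652). All 15 markers of myeloid progenitors were tested, of which 5 rose and 3 fell (53.3% called, against 38.8% of all genes tested). They summed to 5918 and 5909 CPM in R882H and to 3957 and 3939 CPM in EV. Among those that rose, Mpo rose most, with 1213 and 1270 CPM in R882H and 30.4 and 35.0 CPM in EV. The 3 that fell were Cebpa, Csf2rb and Gata2, with log2 fold changes of -0.74, -0.92 and -0.86.

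Markers of other cell types also differed, and they are given because several of those cells express interferon-stimulated genes at rest. B lineage markers summed to 1837 and 1836 CPM in R882H and to 662 and 671 CPM in EV, and all 8 that were tested rose. Basophil and mast cell markers summed to 384 and 409 CPM in R882H and to 51.0 and 50.8 CPM in EV; all 4 tested rose, with Fcer1a, Tpsab1, Tpsb2, Mcpt4 and Cma1 at 0 in all 4 libraries. For plasmacytoid dendritic cells the 10 markers summed to 275 and 243 CPM in R882H and to 147 CPM in each EV library; of 4 tested 2 rose and 1 fell, with Siglech, Ly6d and Klk1 at 0. Monocyte, macrophage and dendritic cell markers summed to 187 and 169 CPM in R882H and to 102 and 106 CPM in EV; of 5 tested 3 rose and 1 fell, with C1qa and C1qb at 0. The sum of erythroid and megakaryocyte markers went the other way, with 36.0 and 30.5 CPM in R882H and 1054 and 861 CPM in EV. In EV it was mostly Pf4, with 1033 and 844 CPM there and 15.1 and 10.5 CPM in R882H. Of 5 tested 1 fell, Pf4, and 1 rose, Itga2b (log2 fold change 1.35), a call lost in DESeq2 (adjusted p = 0.0976). Stromal markers summed to 12.1 and 9.13 CPM in R882H and 617 and 707 CPM in EV, nearly all Thy1, the 1 gene tested, while 6 of 8 were at 0. Neutrophil markers summed to 309 and 339 CPM in R882H and 273 and 285 CPM in EV, mostly Mmp8, with 6 of 10 at 0 and 1 of 3 tested in each direction. Within that list Lcn2 had 3 and 1 counts in R882H and 164 and 224 in EV. T and NK cell markers summed to 25.8 and 26.7 CPM in R882H and 10.1 and 12.5 CPM in EV, with 5 of 10 at 0 and 1 of 2 tested in each direction. The 9 mitochondrial mRNAs summed to 33910 and 41220 CPM in R882H and 41780 and 40950 CPM in EV, and 2 rose and 1 fell. The part of any of these in the results below was not tested, and in bulk RNA fewer cells of a type and less RNA per cell cannot be told apart.

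The comparison of R882H with EV asks which genes the mutant enzyme's expression goes with, and among the members more fell than rose. The sensors Ifih1 and Ddx58 fell, as did Samhd1 of the same group, Jak1 and the effectors Ifi30, Ifi35, Rtp4, Ifitm1, Bst2, Lgals3bp and Ifitm3. The genes that rose were the receptor chains Ifngr1 and Ifnar2, the adaptor Mavs and the effector Parp14. Rose, fell and called are used for an adjusted p under 0.05 in edgeR's quasi-likelihood test, over all 11444 genes tested. Of the 34 members with enough counts, 15 were called (44.1%), against 38.8% of all genes tested. Of the 34, 4 rose (11.8%), against 19.3% of all genes, and 11 fell (32.4%), against 19.4%. The median log2 fold change was -0.14 over the 34 members and 0.01 over all tested genes. By role, 3 of 10 tested sensors fell and 1 rose, 1 of 7 receptor and signalling genes fell and 2 rose, and 7 of 17 tested effectors fell and 1 rose. The share called was 40% of sensors, 42.9% of receptor and signalling genes and 47.1% of effectors, against the 38.8% of all genes. The median log2 fold change was -0.09 for sensors, 0.05 for receptor and signalling genes and -0.58 for effectors.

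**Figure D2:**
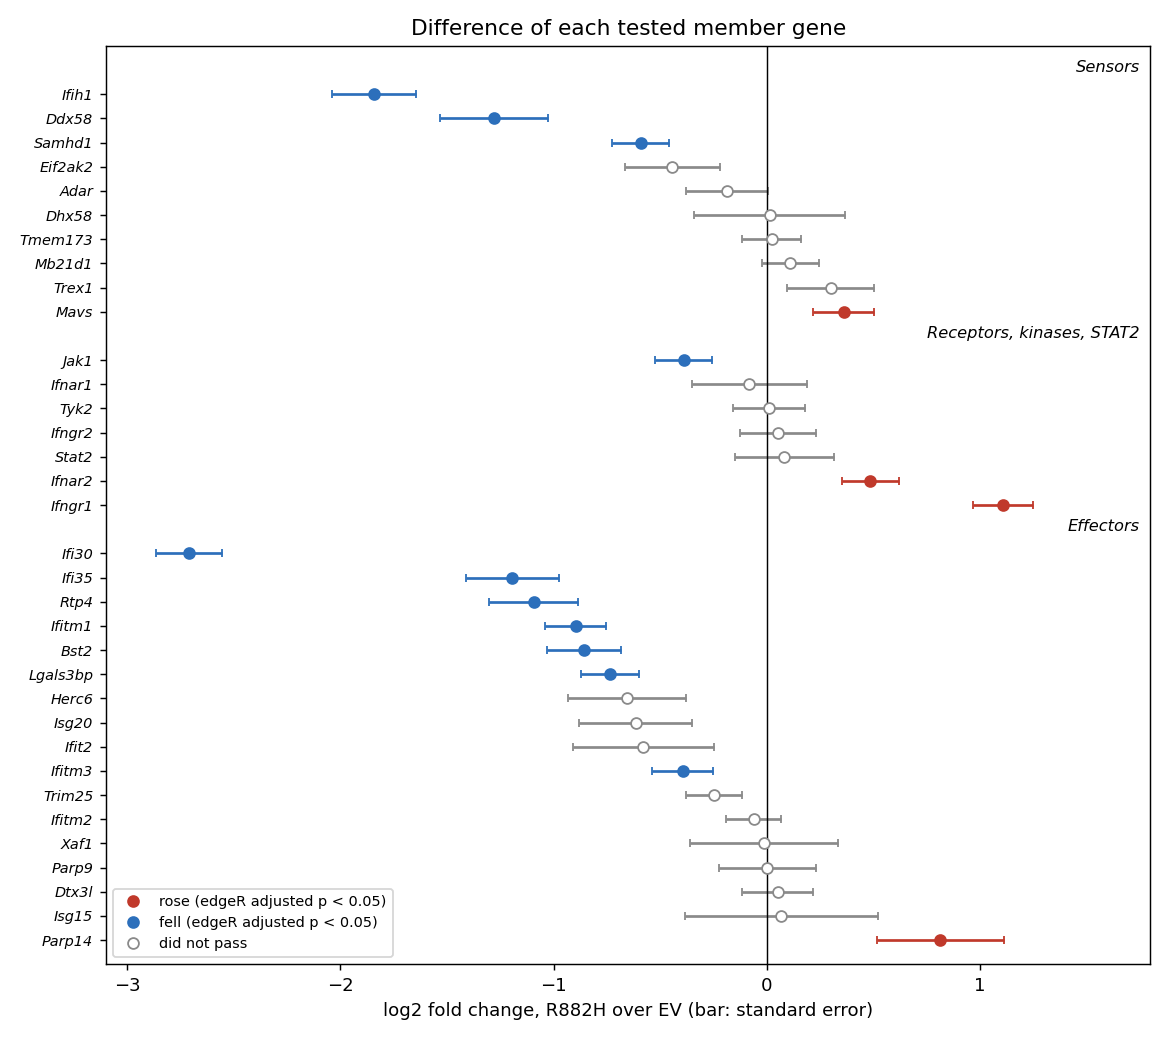
Log2 fold change of R882H over EV (x axis) with its standard error for the 34 tested members, grouped by role. Ifi30 at -2.71 and Ifih1 at -1.84 lie farthest to the left, and Ifngr1 at 1.11 farthest to the right.

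Among the RNA sensors, the genes for both signalling helicases fell. Their adaptor rose by less, and its call was lost under several alternatives. Ifih1 (chr2:62595798-62646255), which encodes MDA5, a sensor of long double-stranded RNA, had 8.53 and 8.43 CPM in R882H and 30.4 and 30.5 CPM in EV. The libraries of a group nearly coincided and the groups did not overlap, with a log2 fold change of -1.84 ± 0.20 (SE, adjusted p = 2.26e-09). Ddx58 (chr4:40203773-40239828), which encodes RIG-I, a sensor of RNA with a 5′ triphosphate, had 5.52 and 5.79 CPM in R882H and 13.9 and 13.6 CPM in EV. Again both R882H libraries lay below both EV libraries, by a log2 fold change of -1.28 ± 0.25 (SE, adjusted p = 1.20e-04). Both of these genes hold an ISRE core close to the start, shown above.

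Mavs (chr2:131234063-131248025), the adaptor that both helicases signal through, had 56.4 and 61.4 CPM in R882H and 42.7 and 48.9 CPM in EV. The groups were apart by little, and the log2 fold change of 0.36 ± 0.14 (SE) had an adjusted p of 0.0434. This call was lost with library size as the only scaling (adjusted p = 0.0641), in DESeq2 (adjusted p = 0.226) and without EV replicate 1 (0.175), R882H replicate 1 (0.0874) or R882H replicate 2 (0.254). Within each library Ifih1 had 0.151 and 0.137 counts per count of Mavs in R882H, against 0.712 and 0.625 in EV. Ifih1 and Ddx58 also moved by unequal amounts, with 1.55 and 1.45 counts of Ifih1 per count of Ddx58 in R882H against 2.18 and 2.25 in EV.

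The other genes of the RNA sensor list did not pass the test or had too few counts for it. Dhx58 (LGP2), a helicase without a signalling domain that modulates the other helicases, had 4.85 and 4.04 CPM in R882H and 5.14 and 3.71 CPM in EV, with the EV libraries on either side of the R882H ones. Eif2ak2, the kinase PKR that stops translation on double-stranded RNA, had 11.0 and 9.83 CPM in R882H and 15.4 and 13.1 CPM in EV (log2 fold change -0.44 ± 0.22 SE, adjusted p = 0.114). Adar, which edits double-stranded RNA and so keeps it from MDA5, had 26.3 and 17.0 CPM in R882H and 22.2 and 27.2 CPM in EV, with overlapping groups. Zbp1, a sensor of Z-form nucleic acid, had 3 and 1 counts in R882H and 8 and 11 in EV. That is too few for the test, and the ratio of EV to R882H was 4.99, with an exact 95% interval of 1.66 to 20.2 that covers counting error only.

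Among the genes of DNA sensing and nucleic acid removal, 1 of 4 was called (25%, against 38.8% of all genes tested). Samhd1 (chr2:157097533-157135265), which breaks down deoxynucleotides, had 79.0 and 75.0 CPM in R882H and 111 and 121 CPM in EV. Both R882H libraries lay below both EV libraries, by a log2 fold change of -0.59 ± 0.13 (SE, adjusted p = 4.98e-04). Tmem173 (STING) had 98.4 and 102 CPM in R882H and 86.4 and 111 CPM in EV, so that the EV libraries enclosed the R882H ones. Mb21d1 (cGAS) had 68.8 and 66.0 CPM in R882H and 61.3 and 63.5 CPM in EV (adjusted p = 0.543). Trex1, the exonuclease that removes cytosolic DNA, had 18.7 and 18.6 CPM in R882H and 12.7 and 17.7 CPM in EV (adjusted p = 0.248). For Mb21d1 and Trex1 the groups were apart by little, and neither passed the test.

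All 7 receptor and signalling genes had enough counts, and 3 were called, or 1 without R882H replicate 1. Ifngr1 (chr10:19591949-19610229), the chain that binds interferon gamma, had 74.0 and 76.9 CPM in R882H and 33.7 and 36.2 CPM in EV. Both R882H libraries lay far above both EV libraries, by a log2 fold change of 1.11 ± 0.14 (SE, adjusted p = 9.36e-08). Ifngr2, the partner chain, had 21.1 and 23.4 CPM in R882H and 21.3 and 21.5 CPM in EV, and did not pass (adjusted p = 0.842). Per count of Ifngr2 there were 3.51 and 3.29 counts of Ifngr1 in R882H, against 1.59 and 1.68 in EV.

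For the type I receptor, Ifnar2 (chr16:91372783-91405589), its ligand-binding chain, had 94.2 and 82.0 CPM in R882H and 60.9 and 65.0 CPM in EV. The groups did not overlap, with a log2 fold change of 0.49 ± 0.14 (SE, adjusted p = 0.00437), which was lost without R882H replicate 1 (adjusted p = 0.116). Ifnar1, the other chain, had 9.20 and 7.90 CPM in R882H and 6.79 and 11.3 CPM in EV, with the EV libraries on either side of the R882H ones (adjusted p = 0.835). Exons of Ifnar2 overlap those of Gm21970, which had 201 and 140 counts in R882H and 138 and 161 in EV. Both genes lie on the plus strand, so no strand setting would tell reads in the overlap apart. Trex1, Ifitm2 and Herc6, which did not pass, also share exons with a gene on their own strand. Jak1 and Ifi30, described below, overlap a gene on the opposite strand. Among members that did not pass, so do Eif2ak2, Adar, Mb21d1 and the pair Parp9 and Dtx3l. The strand setting of the counting is not given in the sources used here, so reads in those overlaps cannot be told apart either.

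Jak1 (chr4:101152367-101265282), the kinase used by all interferon receptors, had 149 and 163 CPM in R882H and 187 and 221 CPM in EV. It fell by a log2 fold change of -0.39 ± 0.13 (SE, adjusted p = 0.0197), with no overlap between groups. The call was lost without EV replicate 2 (adjusted p = 0.108), R882H replicate 1 (0.268) or R882H replicate 2 (0.0883), and its exons overlap those of Raver2, which had 18 and 27 counts in R882H and 37 and 40 in EV. Tyk2, the second kinase of the type I receptor, had 29.6 and 26.3 CPM in R882H and 25.9 and 29.7 CPM in EV (adjusted p = 0.965). Stat2, the transcription factor that acts with Irf9 at the ISRE, had 10.7 and 17.6 CPM in R882H and 11.2 and 15.4 CPM in EV (adjusted p = 0.807). For Tyk2 and Stat2 the groups overlapped.

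**Figure D3:**
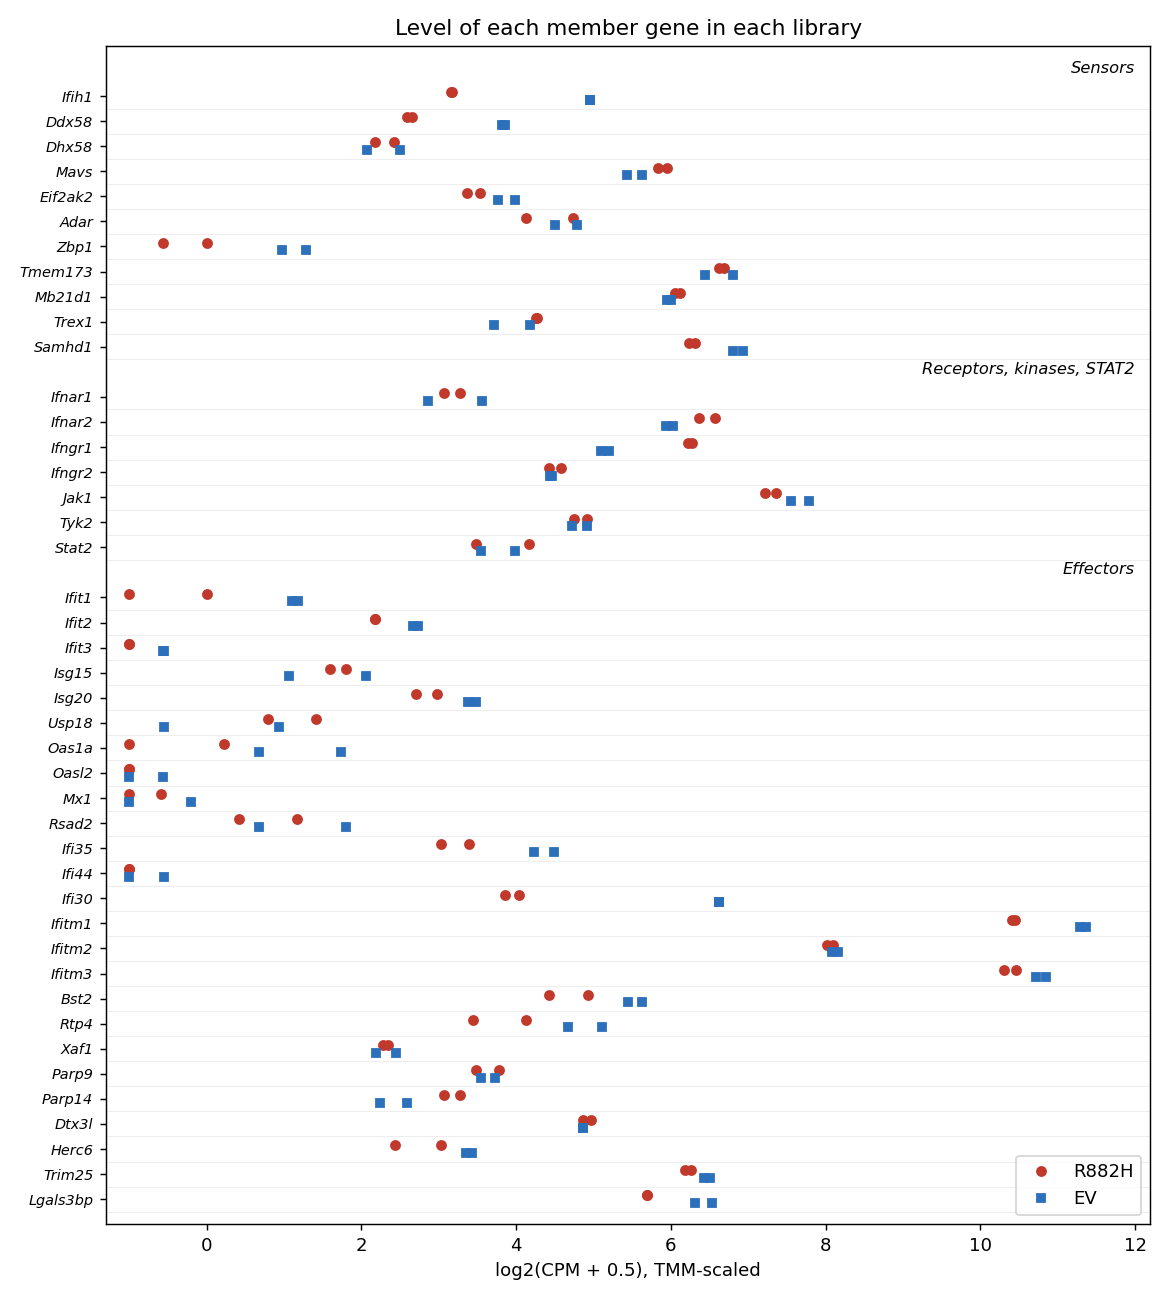
Level of all 43 members in each library as log2(CPM + 0.5), R882H as circles and EV as squares, grouped by role, with genes at 0 counts at the left edge. Ifi30, Ifih1 and Ifitm1 show both R882H libraries well below both EV libraries, and Ifngr1 shows them above.

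Of the effectors, Ifi30 differed most. Ifi30 (chr8:70762774-70766663), a lysosomal thiol reductase that unfolds proteins for antigen presentation and is induced by interferon gamma, had 15.9 and 14.0 CPM in R882H and 97.7 and 98.5 CPM in EV. The log2 fold change was -2.71 ± 0.16 (SE, adjusted p = 3.31e-16), and no other tested member fell as far. Exons of Ifi30 overlap those of 6330537M06Rik, which had 123 and 95 counts in R882H and 111 and 139 in EV. Its promoter window held neither motif.

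The Ifitm genes, whose membrane proteins hinder the entry of enveloped viruses, were the most abundant members and moved unequally. Ifitm1 (chr7:140967221-140969825) had 1364 and 1403 CPM in R882H and 2645 and 2503 CPM in EV, a log2 fold change of -0.90 ± 0.14 (SE, adjusted p = 6.06e-06). Ifitm3 (chr7:141009586-141010770) had 1267 and 1407 CPM in R882H and 1838 and 1679 CPM in EV, a log2 fold change of -0.40 ± 0.14 (SE, adjusted p = 0.0277). That call was lost without R882H replicate 1 (adjusted p = 0.332) or R882H replicate 2 (0.124). Ifitm2, their neighbour on the chromosome, had 259 and 272 CPM in R882H and 270 and 285 CPM in EV and did not pass (adjusted p = 0.743).

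Per count of Ifitm3 there were 1.08 and 0.997 counts of Ifitm1 in R882H, against 1.44 and 1.49 in EV. The windows of Ifitm2 and Ifitm3 hold ISRE cores and that of Ifitm1 holds none. The Ifitm1 window (chr7:140967826-140968125) surrounds a RefSeq start inside the gene, so the bases before the gene's start at 140967221 were not searched. The 3 genes made up 73.6% and 75% of the summed CPM of all members in R882H and 79.9% and 77.2% in EV. Without them the effectors summed to 269 and 264 CPM in R882H and to 443 and 464 CPM in EV. Of these sums Ifi30 alone held 15.9 and 14.0 CPM in R882H and 97.7 and 98.5 CPM in EV. The Ifitm paralogs lie close together, and whether reads were separated between them was not tested.

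The other 4 effectors that fell have varied roles. Ifi35 (chr11:101448407-101458698), whose protein binds Nmi, had 7.70 and 10.0 CPM in R882H and 18.3 and 22.1 CPM in EV (log2 fold change -1.19 ± 0.22 SE, adjusted p = 4.32e-05). Rtp4 (chr16:23520291-23614222), a chaperone of receptors, had 17.1 and 10.4 CPM in R882H and 33.9 and 24.9 CPM in EV (log2 fold change -1.09 ± 0.21 SE, adjusted p = 7.87e-05). Bst2 (chr8:71534255-71537456), tetherin, which holds budding virus at the cell surface, had 20.9 and 30.0 CPM in R882H and 43.1 and 49.1 CPM in EV (log2 fold change -0.86 ± 0.17 SE, adjusted p = 1.50e-04). In each of these genes both R882H libraries lay below both EV libraries, though the libraries of a group differed more than for Ifih1 or Ifi30. Lgals3bp (chr11:118392751-118402092), a secreted galectin-binding glycoprotein, had 51.2 and 51.3 CPM in R882H and 78.9 and 91.8 CPM in EV, again without overlap (log2 fold change -0.74 ± 0.14 SE, adjusted p = 5.12e-05).

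Parp14 (chr16:35832874-35871544), an ADP-ribosyltransferase, was the only effector that rose. It had 9.20 and 7.90 CPM in R882H and 5.50 and 4.24 CPM in EV, a log2 fold change of 0.81 ± 0.30 (SE, adjusted p = 0.0284). The call was lost in DESeq2 (adjusted p = 0.244) and without EV replicate 2 (0.180), R882H replicate 1 (0.181) or R882H replicate 2 (0.0516). Its neighbours Parp9, which acts with Dtx3l, and Dtx3l, a ubiquitin ligase, did not pass. Parp9 had 13.2 and 10.7 CPM in R882H and 11.2 and 12.7 CPM in EV, and Dtx3l had 28.8 and 30.7 CPM in R882H and 28.6 and 28.8 CPM in EV.

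Several classical interferon-stimulated genes were low in all libraries. Isg15, a ubiquitin-like modifier with 3 ISRE cores, had 2.51 and 2.98 CPM in R882H and 3.67 and 1.59 CPM in EV, with overlapping groups (adjusted p = 0.918). Ifit2, an RNA-binding inhibitor of translation, had 4.02 and 4.04 CPM in R882H and 5.87 and 6.18 CPM in EV (log2 fold change -0.58 ± 0.33 SE, adjusted p = 0.167). Isg20, an RNA exonuclease, had 6.02 and 7.37 CPM in R882H and 10.6 and 9.89 CPM in EV (log2 fold change -0.62 ± 0.26 SE, adjusted p = 0.0627). Herc6, the ligase that attaches Isg15 in mice, had 7.70 and 4.92 CPM in R882H and 9.72 and 10.2 CPM in EV (log2 fold change -0.66 ± 0.28 SE, adjusted p = 0.0578). For Ifit2, Isg20 and Herc6 the groups did not overlap, and none passed the test. Without R882H replicate 1, Herc6 did (adjusted p = 0.0334).

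Trim25, a ubiquitin ligase that assists RIG-I, had 76.5 and 72.0 CPM in R882H and 85.8 and 90.6 CPM in EV (log2 fold change -0.25 ± 0.13 SE, adjusted p = 0.134). Xaf1, a pro-apoptotic protein, had 4.35 and 4.56 CPM in R882H and 4.95 and 4.06 CPM in EV (adjusted p = 0.980). In all, 8 of the 19 members that did not pass had groups that did not overlap, and their log2 fold changes over the 19 ran from -0.66 to 0.30. Over all tested members 23 of 34 had groups that did not overlap, as did 7910 of the 11444 genes.

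The 8 effectors left out of the test held few counts, and with Zbp1 they summed to 29 and 18 counts in R882H and 34 and 64 in EV. Ifit1, which binds viral RNA caps, had 3 and 0 counts in R882H and 9 and 10 in EV, a ratio of EV to R882H of 6.65 with an interval of 1.96 to 35.1. Oas1a, a synthetase that double-stranded RNA activates, had 4 and 0 counts in R882H and 6 and 16 in EV, a ratio of 5.78 with an interval of 1.96 to 23.1. Usp18, which removes Isg15 and restrains the type I receptor, had 13 and 7 counts in R882H and 1 and 8 in EV, and here R882H over EV was 2.12 with an interval of 0.921 to 5.28. With no low-count filter, Zbp1 (adjusted p = 0.0309), Ifit1 (0.0151) and Oas1a (0.0115) passed the test, all lower in R882H. Rsad2 (viperin) had 5 and 10 counts in R882H and 6 and 17 in EV. Mx1 had 1 and 0 counts in R882H and 2 and 0 in EV, and Ifit3, Oasl2 and Ifi44 had 0 in both R882H libraries and at most 1 in each EV library.

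The remaining genes of the pathway were taken from lists of non-members. All 21 interferon ligand genes, of types I, II and III, had 0 counts in all 4 libraries, which allows up to 0.502 and 0.527 CPM in R882H and 0.550 and 0.530 CPM in EV. How reads with several matches were counted is not given. If they were dropped, these limits do not hold for Ifna genes of similar sequence. Of the other signalling and feedback genes, 2 of 19 rose and 4 fell, 31.6% called against 38.8% of all genes tested. Socs3, an inhibitor of JAK signalling, had 8.87 and 5.09 CPM in R882H and 39.1 and 45.2 CPM in EV (log2 fold change -2.58 ± 0.21 SE, adjusted p = 3.50e-12), and Stat3 had 162 and 152 CPM in R882H and 373 and 421 CPM in EV (log2 fold change -1.34). Ifnlr1, the receptor chain for interferon lambda, had 1 and 0 counts in R882H and 65 and 69 in EV, a ratio of EV to R882H of 141 with an interval of 24.8 to 5598. Nmi, the partner of Ifi35, fell by 0.81 on the log2 scale, and its call was lost in DESeq2 (adjusted p = 0.0725) and without EV replicate 1 (0.0605). Irf1, a transcription factor downstream of interferon gamma, rose by 0.70 on the log2 scale and Il10rb, the partner chain of Ifnlr1, by 0.75. Among the pathway's other transcription factors Irf3, Irf7 and Irf9 did not pass.

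Of the other sensors and their signalling genes, 3 of 23 tested rose and 6 fell, 39.1% called against 38.8% of all genes tested, while 5 in all were called without R882H replicate 2. Ifi204, a DNA-binding protein of the interferon-inducible Ifi200 family, had 4.18 and 2.63 CPM in R882H and 50.6 and 55.6 CPM in EV (log2 fold change -3.95 ± 0.22 SE, adjusted p = 2.38e-16). Its relative Ifi209 fell by 0.96 on the log2 scale. Nlrx1, a mitochondrial protein that restrains Mavs, had 11 and 9 counts in R882H and 36 and 40 in EV and fell by 1.98 on the same scale; at a mean of 4.27 CPM it was chosen after its values were seen. Ikbke, a kinase that acts on Irf3, fell by 0.58, a call lost without any 1 of the 4 libraries (adjusted p = 0.0783 to 0.243), in DESeq2 (0.267) and with no low-count filter (0.0535). Members of the Ifi200 family are similar in sequence, and whether their reads were separated was not tested. On the same scale Rnf135, a ligase that assists RIG-I, rose by 0.79 and Unc93b1, a carrier of endosomal Toll-like receptors, by 0.46. Both calls were lost in DESeq2 (adjusted p = 0.0638 for Rnf135 and 0.0601 for Unc93b1) and without R882H replicate 2 (0.0669 for Rnf135 and 0.133 for Unc93b1).

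Of the other interferon-stimulated genes, 6 of 42 tested rose and 5 fell (26.2% called, against 38.8% of all genes tested), with a median log2 fold change of -0.09, and 7 were called without EV replicate 1 or without R882H replicate 1. Ifi47, an immunity-related GTPase, had 65.6 and 78.8 CPM in R882H and 26.2 and 25.8 CPM in EV (log2 fold change 1.47 ± 0.15 SE, adjusted p = 1.15e-09). Samd9l, a restriction factor of poxviruses, rose by 1.35 on the log2 scale and Sp100, a nuclear body protein, by 1.07. Rnf213, a large ubiquitin ligase, had 8.53 and 5.09 CPM in R882H and 16.0 and 16.6 CPM in EV (log2 fold change -1.25 ± 0.25 SE, adjusted p = 1.17e-04). Slfn5, of the Schlafen family, had 2 and 0 counts in R882H and 35 and 24 in EV, a ratio of EV to R882H of 31.0 with an interval of 8.20 to 262. Sp110, Ly6e and Trim12a fell by 1.21, 0.65 and 0.47 on the log2 scale. These calls were lost without EV replicate 1 (adjusted p = 0.0520) or EV replicate 2 (0.131) for Sp110, without R882H replicate 1 (0.0613) for Ly6e, and without EV replicate 1 (0.245) or R882H replicate 1 (0.316) and in DESeq2 (0.158) for Trim12a.

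Antigen presentation genes, several of which interferon gamma induces, held 8 that rose and 5 that fell of 20 tested, 65% called against 38.8% of all genes tested, with a median log2 fold change of 0.34 and a mean of -0.10. H2-Q7, a class I gene, had 381 and 347 CPM in R882H and 152 and 163 CPM in EV (log2 fold change 1.21 ± 0.13 SE, adjusted p = 4.50e-09). Nlrc5, the transcriptional activator of class I genes, rose by 0.88 on the log2 scale and H2-T22 by 0.76. Reads of histocompatibility genes can be shared between near-identical copies, so their separate values are uncertain. The genes that fell were the class II genes H2-Ab1 and H2-Eb1, the peptide editor Tapbpl, the proteasome activator subunit Psme2 and the immunoproteasome subunit Psmb8. H2-Ab1 had 12.1 and 10.2 CPM in R882H and 29.3 and 29.0 CPM in EV (log2 fold change -1.39 ± 0.19 SE, adjusted p = 4.02e-07), and H2-Eb1 had 0 and 1 counts in R882H and 17 and 16 in EV. Tapbpl fell by 1.07 on the log2 scale, Psme2 by 0.64 and Psmb8 by 0.48. Psme2 lost its call in DESeq2 (adjusted p = 0.0665) and without R882H replicate 2 (0.0775), and Psmb8 without R882H replicate 1 (0.219). Psmb9, another immunoproteasome subunit, was singled out after its values were seen: it rose, and there were 1.03 and 0.991 counts of Psmb8 per count of Psmb9 in R882H against 1.91 and 2.15 in EV. Its call was lost without R882H replicate 2.

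**Figure D4:**
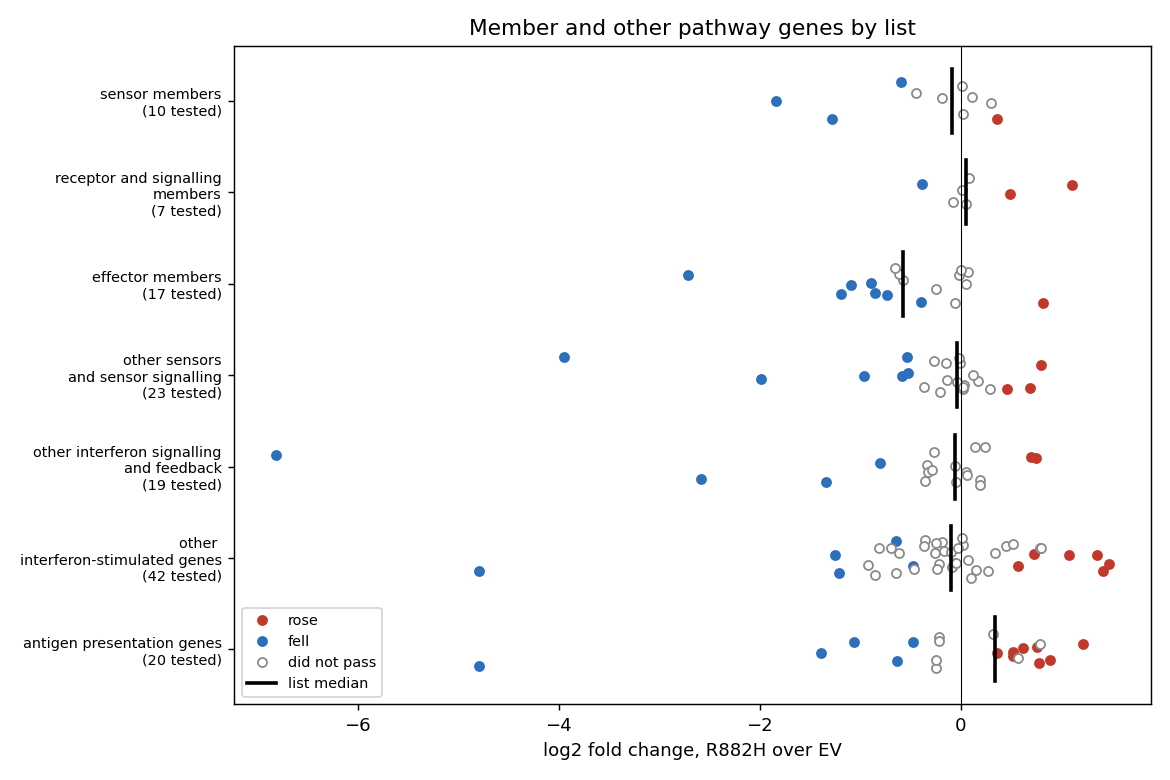
Log2 fold change of R882H over EV for each tested gene (points, filled where called) with the median (vertical bar), for the members by role and for each list of other pathway genes. The effectors hold 1 gene that rose and 7 that fell around a median of -0.58, and the antigen presentation genes 8 and 5 around a median of 0.34; the points farthest left, Ifnlr1, Slfn5 and H2-Eb1, had 3 or fewer counts in R882H and their fitted folds depend on the prior count.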

How the data were processed

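RNA of 4 Hoxb8 libraries was read with QuantSeq, which tags transcripts near the 3′ end, so counts do not scale with transcript length. The authors deposited whole-number counts for each Ensembl gene. The submitters' processing notes name the mm10 build, edgeR 3.34.0, limma 3.48.3, Subread 2.0.0 with featureCounts, HISAT2 2.0.4, cutadapt 1.14 and bcl2fastq 2.17.1.14, without roles. Which annotation and strand setting were used, and how reads with several matches were counted, is not given in the sources used here. Lines without a symbol held 0.0997% of counts. From these counts, edgeR 4.0.16 in R 4.3.3 was run with filterByExpr by group, TMM factors, robust quasi-likelihood fits and Benjamini-Hochberg adjustment over all tested genes. CPM values use TMM-scaled library sizes, fold changes are R882H over EV, and each standard error is the size of the log2 fold change divided by √F. Intervals and floors (3 counts) cover counting error only. Replicates of a group differed by more than sampling noise (chi-square per degree of freedom 4.87 in R882H and 7.28 in EV). The fits were run on simulated counts with 200 changed genes. That is far fewer than the 4435 called here, so the run does not test error control at that share. Alternatives were DESeq2 1.42.0, other scalings and filters, a replicate block, leaving out each library, and leaving out genes with overlapping exons.

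Positions are 1-based, from GENCODE M21 on the mm10 assembly. Promoter windows are from RefSeq (GRCm38.p6). The members and the lists of other genes were chosen with earlier results of these data known. All members are given; of each other list, up to 4 called genes with the largest rise and 4 with the largest fall at a mean of at least 5 CPM could be named, with any gene needed to complete a count of 5 or fewer. Some genes of these lists are not reported here.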

Additional observations from a re-analysis of the deposited data

How the results depend on the processing

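The 15 calls among the members became 13 in DESeq2, 15 with DESeq2's size factors in edgeR, 18 with no low-count filter and 12 without genes that share exons, and 10 of the 15 held under every alternative that tested them; the 5 lost in some were Mavs, Ifnar2, Jak1, Ifitm3 and Parp14. Leaving out 1 library in turn gave 11 to 15 called members, 3 to 4 sensors, 1 to 3 receptor and signalling genes, 6 to 9 effectors, 28 to 38 genes of the other lists and 2954 to 4233 genes in all. Over all genes, 4435 calls of 11444 tested became 2709 of 12972 in DESeq2 and 4586 of 18806 with no low-count filter. They became 4422 of 11444 with DESeq2's size factors and 3137 of 7943 without genes that share exons. In that last setting the 3 called receptor and signalling genes became 1, Ifngr1, since Ifnar2 and Jak1 were not tested. In DESeq2 4 of the other sensors and 7 of the other interferon-stimulated genes were called, against 9 and 11, and without genes that share exons 7 of the other interferon-stimulated genes and 8 of the antigen presentation genes, against 11 and 13. The looser ISRE form GAAANNGAA was in 15 members (42.9%) and 9.76% of genes.

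Changes of sign concerned members that did not pass the test. With library size only, Dhx58 came to -0.003, Tyk2 to -0.005 and Parp9 to -0.013 on the log2 scale. In DESeq2 Dhx58 came to -0.001 and Parp9 to -0.008. Parp9 was -0.005 with DESeq2's size factors and -0.000 with the stricter filter. Leaving out 1 library gave log2 fold changes of -0.210 to 0.258 for Dhx58, -0.523 to 0.104 for Adar, -0.151 to 0.211 for Tmem173, -0.404 to 0.329 for Ifnar1, -0.007 to 0.138 for Ifngr2, -0.088 to 0.109 for Tyk2, -0.295 to 0.414 for Stat2, -0.421 to 0.775 for Isg15, -0.157 to 0.128 for Xaf1 and -0.146 to 0.160 for Parp9. The cause was not tested.

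Deviations of same-numbered libraries from their group means correlated at -0.0026, so the numbers were not taken to pair the libraries. With the replicate block 14 members and 4425 genes were called, Ifitm3 lost its call (adjusted p = 0.0560) and Parp9 came to -0.000. A lone library left in a group is assumed to vary like the other group. The low-count filter kept 9 of the 43 members out of the test; with no filter Zbp1, Ifit1 and Oas1a were called and the other 6 were not.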
